A study of Mus musculus with 9 samples.

Results

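This report describes chromatin accessibility at p53 and 9 genes of its response, 10 genes in all: Trp53, Mdm2, Mdm4, Bax, Bbc3, Pmaip1, Ccng1, Sesn2, Gadd45a and Btg2. They were named by symbol and taken from the 21938 protein-coding genes of the GENCODE M21 annotation (mouse, mm10). Every peak within 1 kb of one of their transcription start sites (TSSs), and every peak in their gene bodies with 10 kb on either side, was collected from the 4 deposited peak lists. Overlapping peaks of the 4 lists were joined into sites, which gave 61 sites for the 10 genes of 128522 sites in the genome.

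The study asked how the histone chaperone ANP32E, which removes the histone variant H2A.Z from chromatin, bears on accessibility, and measured it by ATAC-seq, in which a transposase cuts open chromatin. Primary mouse embryonic fibroblasts (MEFs) from WT embryos gave 3 libraries and MEFs from Anp32e-/- embryos (Anp32e null) gave 3. The siRNA groups were made in Anp32e null MEFs: 1 library came from cells that received a non-targeting pool (NT siRNA), and 2 from cells that received a pool of 4 H2A.Z siRNAs (H2A.Z siRNA). Both siRNA groups were therefore Anp32e null, and the MEFs were used below passage 8.

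p53 is a transcription factor that is kept low in unstressed cells by the ubiquitin ligase MDM2 and its relative MDM4, and that accumulates after DNA damage or other stress. It then binds response elements made of a pair of decamers near its target genes, among them Mdm2 itself, which closes a negative feedback loop. Fibroblasts respond mainly by growth arrest and repair, while genes such as Bax, Bbc3 and Pmaip1 drive the mitochondrial pathway of apoptosis.

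Each group has a single deposited list, with no values for its separate libraries, so there was no replicate of any value, and no comparison between groups could be tested over samples. Each peak was described by a pair of measures. The first was the percentile rank of a peak's fold enrichment within its own list, where 100 is the highest. The second was the pileup, the number of fragments stacked at the summit, recovered from the deposited fold and p-value. Intervals are 95% intervals of counting error alone. A difference was called higher or lower when its interval left out 0, and such a call compares 2 lists, not 2 conditions. In bulk cells, fewer cells with an open site and a less open site in each cell cannot be told apart. On the nuclear chromosomes the list of WT held 84040 peaks, that of Anp32e null 82567, that of NT siRNA 89272 and that of H2A.Z siRNA 108409. Their genome-wide backgrounds were 8.85, 5.12, 3.88 and 17.8 fragments per position, the highest in the H2A.Z siRNA list and the lowest in the NT siRNA list. Their median peak pileups were 50, 43, 54 and 156. All 10 fibroblast marker genes examined (among them Col1a1, Vim and Pdgfra) had a TSS peak in all 4 lists. Of 10 markers of other cells, 5 had one in WT, 4 in Anp32e null, 6 under NT siRNA and 7 under H2A.Z siRNA. Epcam, Cdh1, Krt8 and Cdh5 were among them in every list, whereas Ptprc, Cd3e and Nanog had none.

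Sequences matching the p53 response element lay under accessible sites of 5 of the 10 genes. The element was searched as a pair of 10-base decamers with no spacer and at most 2 mismatches, with the C and G of each decamer's core required, and since it is its own reverse complement both strands were covered. Those under peaks of Mdm2, Mdm4, Bax and Ccng1 are printed because they match the sequence p53 is known to bind, and that of Pmaip1 is not shown; capitals mark the element, each is written 5′ to 3′ on the strand of the gene, and the coordinates are mm10 (GRCm38). The Mdm2 stretch is intergenic, the Mdm4 stretch and the downstream Ccng1 stretch are intronic, the upstream Ccng1 stretch lies before the gene, and the Bax element lies in annotated Bax UTR sequence and is given without its surroundings.
Mdm2, chr10:117717686-117717795, minus strand: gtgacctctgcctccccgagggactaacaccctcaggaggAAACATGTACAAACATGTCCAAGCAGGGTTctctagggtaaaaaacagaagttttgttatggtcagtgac
Mdm4, chr1:133020255-133020364, minus strand: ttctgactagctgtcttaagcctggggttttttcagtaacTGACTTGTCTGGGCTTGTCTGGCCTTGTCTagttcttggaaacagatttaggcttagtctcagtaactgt
Bax, chr7:45466574-45466593, minus strand: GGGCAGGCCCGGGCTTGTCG
Ccng1 upstream, chr11:40755422-40755521, minus strand: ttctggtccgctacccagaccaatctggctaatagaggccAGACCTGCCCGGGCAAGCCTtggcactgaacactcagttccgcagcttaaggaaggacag
Ccng1 downstream, chr11:40754896-40754995, minus strand: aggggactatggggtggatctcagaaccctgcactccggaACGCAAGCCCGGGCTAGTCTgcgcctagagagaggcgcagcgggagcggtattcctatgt

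In the Mdm2 and Mdm4 stretches 3 decamers followed one another, which gave 2 overlapping elements in each. In all, the 358 kb of the 10 gene windows held 16 elements, of which 8 lay inside a peak and 6 lay inside a peak of every list. The remaining elements under peaks were the pair in Mdm4 intron sequence, which was covered in the lists of both siRNA groups. Within 300 bases around the highest summit, 3 of the 61 sites held an element (Mdm2, Mdm4 and Bax), or 4.92%, against 0.538% of all sites. Over the whole span of each site the count was 5 of 61 (Bax, Ccng1, Mdm2, Mdm4 and Pmaip1), or 8.20%, against 1.18%. With a spacer of up to 13 bases allowed, 6 of the 61 sites held one, or 9.84%, against 5.50% of all sites. A match is a description of letters and shows no binding, and the genes were chosen as p53 targets. Sesn2 and Gadd45a had matches in their windows, but in no peak. At Trp53, Bbc3 and Btg2 the absence of a match says only that these letters were not in the spans searched.

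All 10 genes had a peak within 1 kb of a TSS in all 4 lists. Over all protein-coding genes the share with one was 67.2% in WT, 66.7% in Anp32e null, 66.8% under NT siRNA and 68.4% under H2A.Z siRNA. There were 15 such TSS sites, since Trp53 and Bbc3 each had 3 and Mdm4 had 2, and 14 of the 15 were called in every list. The highest-ranked TSS site of each gene was used for the comparisons. Where 4 values follow one another from here on, they stand for WT, then Anp32e null, then NT siRNA, then H2A.Z siRNA. The median percentile of the 10 genes was 78.7, 73.8, 68.9 and 65.4, against 81.5, 80.0, 79.4 and 81.4 for all protein-coding genes with a TSS peak. The order of the genes was led by Ccng1 and closed by Bbc3 in all 4 lists. In WT, the neighbours in that order whose intervals did not overlap were Ccng1 and Mdm4 at the top, and Sesn2 and Btg2. The intervals of neighbours from Mdm4 down to Sesn2 overlapped, which alone does not show that their ranks were alike.

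**Figure D1:**
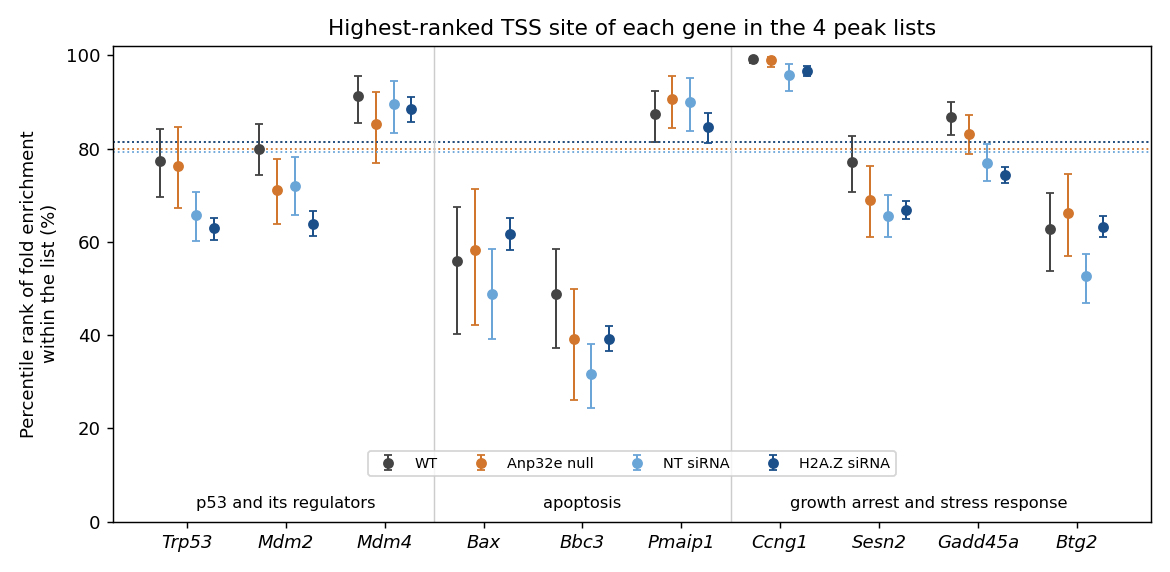
Percentile rank of fold enrichment (vertical axis, %) of the highest-ranked TSS site of each gene in the 4 lists; points are the list values, bars the 95% counting intervals, and dotted lines the medians of all protein-coding genes with a TSS peak. Ccng1 stood at 95.7 or above in every list, and Bbc3 at 48.8 or below.

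Trp53, which encodes p53 itself, lies on the plus strand at chr11:69580359-69591873 (ENSMUSG00000059552.13). Its highest-ranked site was not at its own first base. That site, chr11:69578681-69579597, had its summit 1109 bp upstream, in UTR sequence of Wrap53 and beside a TSS of Wrap53 at -1035 bp from the Trp53 start; Wrap53 is transcribed from the opposite strand. Its percentile was 77.4 in WT, 76.3 in Anp32e null, 65.7 under NT siRNA and 62.9 under H2A.Z siRNA. Its pileup was 132, 118, 398 and 1250 fragments in the same order. The percentile was close between WT and Anp32e null and lower in both siRNA lists.

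The site over the Trp53 start, chr11:69579982-69580490, had its summit 74 bp upstream of the first base and was weak. Its percentile was 5.55 in WT, 1.76 in Anp32e null, 4.29 under NT siRNA and 26.0 under H2A.Z siRNA, with pileups of 42, 31, 119 and 561. It stood far above the others in H2A.Z siRNA, where it was called 21.8 points higher than in NT siRNA (13.8 to 26.7). Ranks of weak peaks move with the length of a list: with each list cut to its 82567 peaks of highest fold, a comparison of single sites chosen after seeing the data, this site stood at 2.90 in H2A.Z siRNA and was no longer in the NT siRNA list. Its pileup, scaled to each list's background and set against the change of the median gene TSS, was also higher, by 0.35 (0.06 to 0.64) on the log2 scale. Another site, chr11:69580962-69581974 in a Trp53 intron, had percentiles of 50.4, 56.3, 51.9 and 57.5, and was not called in either comparison. The 103 bases between the Trp53 start and the nearest Wrap53 start, over which the weak site had its summit, are printed to show how close the 2 divergent starts are, with a CCAAT box (read on the minus strand) in capitals.
Trp53 and Wrap53 gap, chr11:69580256-69580358, plus strand: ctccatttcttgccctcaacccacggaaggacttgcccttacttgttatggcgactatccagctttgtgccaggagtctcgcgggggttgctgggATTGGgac

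Over 14044 other genes with a TSS site in every list, Wrap53 had the pattern most like Trp53 because its highest TSS site was the same one (distance 0 in percentile points over the 4 lists). Mapkapk3 was next at 3.22 and Hpse at 4.22.

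Mdm2, the ubiquitin ligase of p53, lies on the minus strand at chr10:117688875-117710758 (ENSMUSG00000020184.15). One peak in each list covered its start, and its percentile was 80.0 in WT, 71.2 in Anp32e null, 72.0 under NT siRNA and 63.9 under H2A.Z siRNA. The pileups were 214, 198, 267 and 1065, and the widths were 2148, 1582, 1592 and 1614 bp. The WT peak was the highest-ranked and the widest. Mdm2 was the one gene called lower in Anp32e null than in WT, with a difference of -8.76 points, and the interval (-17.8 to -0.017) only just left out 0. That call was lost with lists of equal length (-8.40 points), without peaks of a −log10 q under 5 (-8.95), with pileups scaled down to the NT siRNA background (-7.58) and in ranks by −log10 p (-1.37). It was also called lower in H2A.Z siRNA than in NT siRNA, where the difference was -8.14 points (-14.8 to -1.31). The second call held with lists of equal length (-17.2 points) and was lost under the other 3 settings (-7.30, -8.63 and -0.21 points).

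The pileup of Mdm2, scaled to each list's background and set against the median of all genes, did not follow the rank. Its log2 ratio was 0.03 (-0.26 to 0.31) for Anp32e null against WT and 0.11 (-0.09 to 0.30) for H2A.Z siRNA against NT siRNA. The local background that the fold divides by was 3.12, 4.73, 6.15 and 7.95 times the genome-wide one at this peak in the 4 lists, and its part in the rank was not tested. Ranked by pileup, Mdm2 differed by -0.59 points in the first comparison and by 2.08 points in the second, with no call in either.

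The site that held the Mdm2 elements, chr10:117717453-117718668, lay 7014 bp upstream of the gene and was called in every list. Its percentile of 82.2, 76.8, 73.0 and 68.9 was above that of the Mdm2 start in each list, with pileups of 195, 204, 205 and 1017. Neither comparison called it in rank with the full lists, whereas with lists of equal length it was called lower in H2A.Z siRNA than in NT siRNA, at -11.7 points (-20.2 to -3.17). Its scaled pileup relative to the median gene TSS was 0.42 (0.20 to 0.64) on the log2 scale in H2A.Z siRNA against NT siRNA, and 0.21 (-0.08 to 0.50) in Anp32e null against WT. A further site beyond the 3′ end of Mdm2, chr10:117685790-117689019, was a run of 4, 2 and 3 narrow peaks in WT, Anp32e null and NT siRNA and a single peak of 3202 bp in H2A.Z siRNA. Its highest peak ranked 19.3, 32.2, 13.5 and 34.9 with pileups of 44, 52, 39 and 417, and was called higher in H2A.Z siRNA than in NT siRNA by 21.4 points (4.60 to 33.5) and by 1.53 (1.05 to 2.04) in log2 scaled pileup. A weak site in a Mdm2 intron, chr10:117697016-117698239, ranked 3.91, 16.5, 5.43 and 34.8 with pileups of 24, 26, 20 and 272, and was called higher by 29.4 points (9.48 to 37.1) and by 1.88 (1.22 to 2.61) in log2 scaled pileup. Both sites thus stood higher in H2A.Z siRNA, where the Mdm2 start stood lower in rank. With lists of equal length the difference of the former was 8.00 points and not called, and the latter was no longer in the NT siRNA list.

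Mdm4, the MDM2 relative that inhibits p53, spans chr1:132959484-133030561 on the minus strand (ENSMUSG00000054387.13). Its highest site lay not at the outermost start but 5245 bp inside the gene, 14 bp from an internal TSS, and a TSS of the pseudogene Gm29257 lies 385 bp from a TSS of Mdm4. The percentile was 91.2 in WT, 85.2 in Anp32e null, 89.5 under NT siRNA and 88.4 under H2A.Z siRNA, with pileups of 143, 122, 246 and 938, and neither comparison called it. The intronic Mdm4 site that held 2 elements, chr1:133019550-133020680, had no peak in WT or Anp32e null. It was called in NT siRNA at a percentile of 10.5 (pileup 26, width 429 bp) and in H2A.Z siRNA at 40.3 (pileup 178, width 1131 bp), a difference called higher by 29.8 points (9.68 to 41.6). With lists of equal length the percentiles were 3.22 and 21.6, and the difference of 18.4 points (-4.06 to 27.8) was not called. Its scaled pileup relative to the median gene TSS was higher by 0.89 (0.29 to 1.54) on the log2 scale. A site 9127 bp upstream of Mdm4 ranked 67.8, 78.5, 91.3 and 96.1 in the 4 lists, and its 2 differences were not called in rank. Its scaled pileup in H2A.Z siRNA against NT siRNA was 0.33 (0.03 to 0.63) on the same scale.

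Among the genes of apoptosis, Bax and Bbc3 were the lowest-ranked of the 10 genes and Pmaip1 was among the highest. Bax encodes the protein that opens the outer mitochondrial membrane, and lies at chr7:45461697-45466898 on the minus strand (ENSMUSG00000003873.11). Its TSS site ranked 56.0 in WT, 58.3 in Anp32e null, 48.7 under NT siRNA and 61.7 under H2A.Z siRNA. The pileups of 71, 57, 121 and 637 were the smallest of the 10 genes in every list. The printed Bax element was 7 bp from the summit of the H2A.Z siRNA peak, the highest-ranked. Anp32e null and WT did not differ beyond counting error, at 2.31 points (-17.5 to 22.9). H2A.Z siRNA was called higher than NT siRNA by 12.9 points (2.68 to 23.1). The call was lost with lists of equal length (5.11 points) and with pileups scaled to the NT siRNA background (11.8 points).

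Bbc3 encodes PUMA, a BH3-only protein that releases BAX from its inhibitors, and lies at chr7:16308393-16318205 on the plus strand (ENSMUSG00000002083.13). It had 3 TSS sites, and the highest, with its summit 5430 bp into the gene and 306 bp from an internal TSS, ranked 48.8, 39.2, 31.6 and 39.3. The pileups there were 140, 119, 250 and 1174. The site nearest its outermost start, chr7:16308675-16310308, ranked 25.6, 15.9, 8.36 and 26.9. Both sites stood higher in H2A.Z siRNA than in NT siRNA, by 7.62 (0.60 to 15.3) and 18.5 points (10.3 to 24.3). With lists of equal length they were -5.84 (-13.7 to 2.75) and 3.09 points (-5.97 to 7.29), neither called. With pileups scaled to the NT siRNA background the former was 5.08 and no longer called. Scaled pileup at the latter was higher by 0.61 (0.36 to 0.86) on the log2 scale.

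Pmaip1 encodes NOXA, a BH3-only protein, and lies at chr18:66458533-66465565 on the plus strand (ENSMUSG00000024521.8). Its TSS site ranked 87.4, 90.7, 90.1 and 84.6, with pileups of 156, 168, 227 and 713. It held an element centred 94 bp upstream of the gene start. Neither difference in rank was called. A site 5138 bp upstream ranked 89.1, 91.5, 92.1 and 92.4, about as high as the start itself. A site 14678 bp downstream of the start, chr18:66472706-66473417, beyond the 3′ end, ranked 71.5, 73.7, 56.0 and 83.1 with pileups of 76, 80, 38 and 401. It was called higher in H2A.Z siRNA than in NT siRNA by 27.2 points (10.6 to 45.8) and by 1.51 (1.03 to 2.03) in log2 scaled pileup, and the call held with lists of equal length (25.5 points, 7.22 to 45.9).

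Ccng1, which encodes cyclin G1, had the strongest promoter peak of the 10 genes in rank. The gene lies at chr11:40748552-40755311 on the minus strand (ENSMUSG00000020326.7). Its TSS site ranked 99.3 in WT, 98.9 in Anp32e null, 95.7 under NT siRNA and 96.7 under H2A.Z siRNA, and its pileups were 526, 500, 502 and 2140. The summit lay 2 bp from the annotated first base, between the printed elements centred 160 bp upstream and 366 bp downstream of it. All 4 lists placed it near the top, and neither comparison called it in rank, with differences of -0.40 (-1.88 to 0.76) and 1.02 points (-1.60 to 4.46).

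Sesn2, whose product sestrin 2 restrains mTORC1 under stress, lies at chr4:132492032-132510501 on the minus strand (ENSMUSG00000028893.8). Its TSS site ranked 77.1, 69.0, 65.6 and 66.8, with pileups of 195, 168, 516 and 1918, and was not called in rank. With lists of equal length its difference between H2A.Z siRNA and NT siRNA turned from 1.23 to -6.36 points and was called lower. A TSS of the antisense gene Gm12981 lies 852 bp from a TSS of Sesn2. Gadd45a, a stress sensor of growth arrest and DNA repair, lies at chr6:67035096-67037457 on the minus strand (ENSMUSG00000036390.8). Its TSS peak covered most of the gene in WT (2302 bp) and ranked 86.8, 83.2, 76.9 and 74.4, with pileups of 420, 447, 682 and 2241. It too was not called in rank with the full lists, and TSSs of the noncoding gene E230016M11Rik lie 531 to 587 bp from its own.

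Btg2, an antiproliferative gene of the BTG family, lies at chr1:134075170-134079120 on the minus strand (ENSMUSG00000020423.6). Its TSS site ranked 62.8 in WT, 66.2 in Anp32e null, 52.7 under NT siRNA and 63.2 under H2A.Z siRNA. The pileups were 149, 134, 433 and 1472, and the peak was 1163 bp wide under NT siRNA against 2146 bp under H2A.Z siRNA. H2A.Z siRNA was called higher in rank than NT siRNA by 10.6 points (5.45 to 16.7), a call that was lost with lists of equal length (2.92 points), but Btg2 was not above the other genes in scaled pileup, at -0.12 (-0.28 to 0.03) on the log2 scale.

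The first comparison, Anp32e null against WT, asked whether loss of the chaperone went with a change in the accessibility of the p53 genes. Between these lists 7 of the 10 genes stood lower in rank and 3 higher, with a median difference of -2.32 points and a range from -9.65 (Bbc3) to 3.43 (Btg2). None was called higher, where 2.26% of 14357 genes were, and 1 was called lower (Mdm2), where 9.19% were. The median over all genes was -1.29 points. With lists of equal length none of the 10 was called higher (2.55% of genes) or lower (8.27%). In scaled pileup relative to the median gene, Gadd45a was called above at 0.23 (0.04 to 0.43) on the log2 scale, where 12.8% of genes were above and 9.01% below, and no gene of the 10 was called below. The median gene's own log2 ratio was 0.65, and before it was taken off the 10 genes ran from 0.47 to 0.90. All of their intervals but that of Bax (-0.06 to 1.00) then lay above 0. Percentile ranks likewise leave out a shift shared by all sites. Why the median gene stood higher was not tested. All 10 TSS peaks were narrower in Anp32e null than in WT, by a median of 81 bp, where 58.9% of all TSS peaks were narrower and the median difference was -22 bp. The Anp32e null list also had the lower background (5.12 against 8.85), and its part in the widths was not tested.

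The second comparison, H2A.Z siRNA against NT siRNA, asked the same of H2A.Z loss in cells without ANP32E. Here 5 genes stood higher in rank and 5 lower, with a median of -0.01 points against 2.06 over all genes. Of the 10 genes, 3 were called higher (Bax, Bbc3 and Btg2), where 21.4% of 14614 genes were, and 1 lower (Mdm2), where 4.62% were. With promoters of 500 bp on either side, or the site nearest a TSS, the weak site over the Trp53 start stood for Trp53, which turned it from -2.78 to 21.8 points and made 4 genes called higher. Of all genes 21.5% were called higher with the former setting and 21.4% with the latter. With 2 libraries behind one list and 1 behind the other, the groups and their libraries cannot be told apart. This split turned when each list was shortened to an equal length (its 82567 peaks of highest fold). Then none of the 10 was called higher (7.35% of genes) and 5 were called lower (15.3% of genes), namely Trp53, Mdm2, Pmaip1, Sesn2 and Gadd45a, with a median of -6.10 points against -0.997 over all genes. With the pileups scaled down to the background of the NT siRNA list, Btg2 alone was called higher (13.7% of genes) and none lower (2.26%). Without peaks of a −log10 q under 5, Bax, Bbc3 and Btg2 were called higher (25.6% of genes) and none lower (3.68%).

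In scaled pileup, Bax stood above the median gene by 0.51 (0.22 to 0.80) on the log2 scale, Bbc3 by 0.34 (0.14 to 0.54) and Ccng1 by 0.20 (0.06 to 0.34). Trp53 (-0.24, from -0.40 to -0.07), Pmaip1 (-0.24, from -0.46 to -0.02) and Gadd45a (-0.17, from -0.30 to -0.05) stood below it. Of all genes 19.7% were called above and 18.3% below. The median gene's own log2 ratio was -0.31, and before it was taken off the 10 genes ran from -0.55 to 0.20. Bax was then at 0.20 (-0.09 to 0.49), Bbc3 at 0.03 (-0.17 to 0.24) and Ccng1 at -0.11 (-0.25 to 0.04). All of these intervals held 0, and those of the other genes lay below 0. Why the median gene stood lower was not tested. With the full lists, Bax and Bbc3 were thus the genes called higher in rank and above the median gene in scaled pileup. With lists of equal length their rank differences were 5.11 and -5.84 points, neither called higher. All 10 TSS peaks were wider in H2A.Z siRNA, by a median of 136 bp, as were 95.4% of all TSS peaks, whose median difference was 151 bp.

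**Figure D2:**
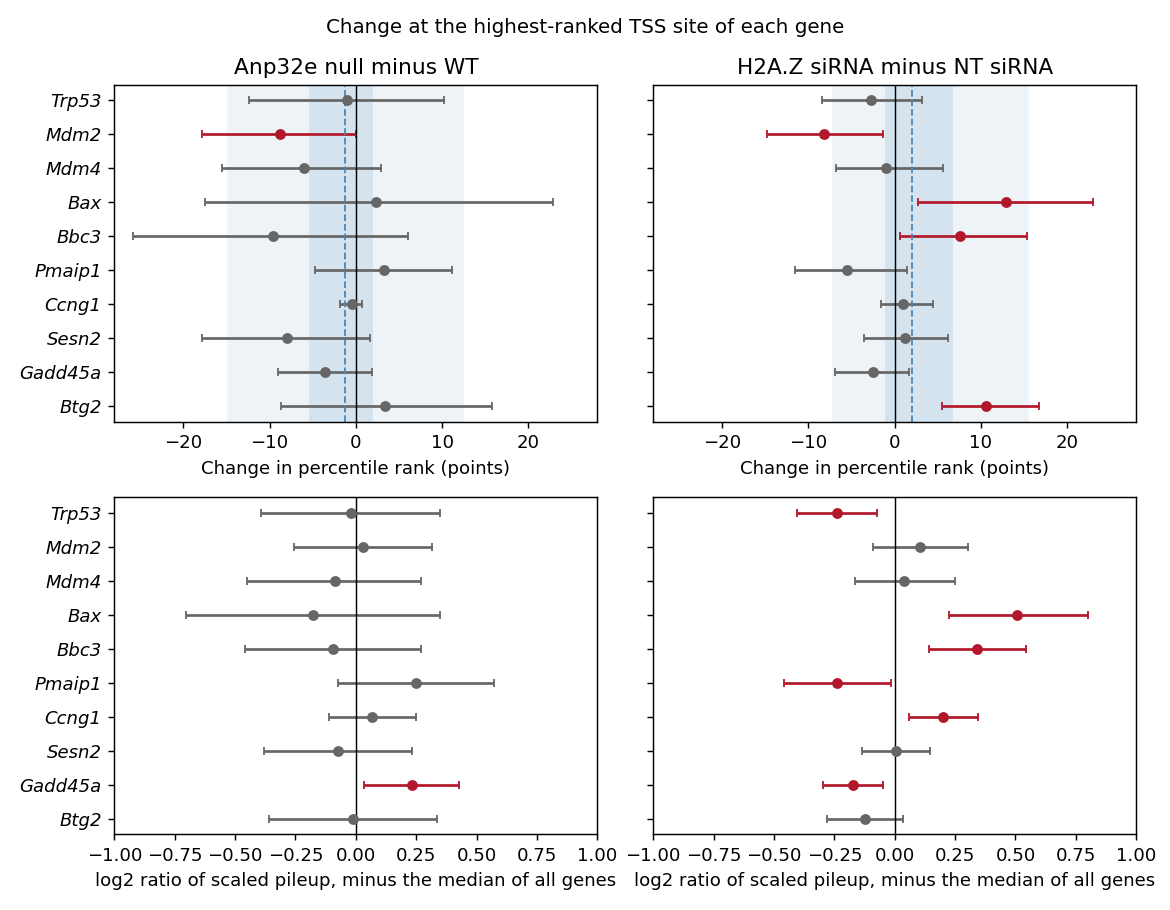
Differences at the highest-ranked TSS site of each gene for both comparisons, in percentile points (top) and in log2 scaled pileup relative to the median of all genes (bottom), with 95% counting intervals; red marks intervals that leave out 0, and in the top panels the dashed line, dark band and light band mark the median, the central 50% and the central 90% of all genes. Mdm2 was called lower in rank in both comparisons and in neither by pileup.

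Around the genes, the gene bodies with 10 kb flanks held 44 peaks in WT, 38 in Anp32e null, 47 under NT siRNA and 55 under H2A.Z siRNA. The median gene of the 10 had 4, 3.5, 4.5 and 6 peaks, against 3 in every list over all protein-coding genes. With list lengths made equal in this way the totals were 41, 38, 34 and 33, so the order of the lists turned. Of the 61 sites, 32 (52.5%) were called in all 4 lists, against 47.1% of the sites in such windows of all protein-coding genes. A further 10 (16.4%) were called in H2A.Z siRNA alone, against 15.2%. Another 5 (8.20%) were called in WT alone, against 5.79%, and 5 (8.20%) in both siRNA lists alone, against 9.27%.

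Of the 46 sites outside the TSS windows 18 were called in every list, against 42.5% over all protein-coding genes, and of the 15 TSS sites 14 were, against 73.9%. In these shares over all genes a site counts once for each gene whose window holds it, and neither difference was tested. Sites found in 1 list were weak, with a median percentile of 6.89, against 66.8 for the highest value of sites found in all 4. The highest of the former was a WT peak 8604 bp beyond the Ccng1 start, past its 3′ end, at 59.1. Sesn2 had 2, 2, 4 and 8 peaks in the 4 lists, and its 4 sites called in H2A.Z siRNA alone ranked between 3.09 and 7.39 there. Over the window sites with a peak in both lists, none of 32 was called higher in Anp32e null than in WT (4.82% of such sites at all genes) and 1 was called lower (8.09%). In H2A.Z siRNA against NT siRNA, 15 of 42 were called higher (22.6% of such sites at all genes) and 2 lower (3.55%), the Mdm2 start and a site upstream of Bax (-12.5 points). This split too turned with lists of equal length, a comparison chosen after seeing the data, where 1 of 31, the downstream Pmaip1 site, was called higher (8.55% of such sites at all genes) and 11 lower (12.4%).

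**Figure D3:**
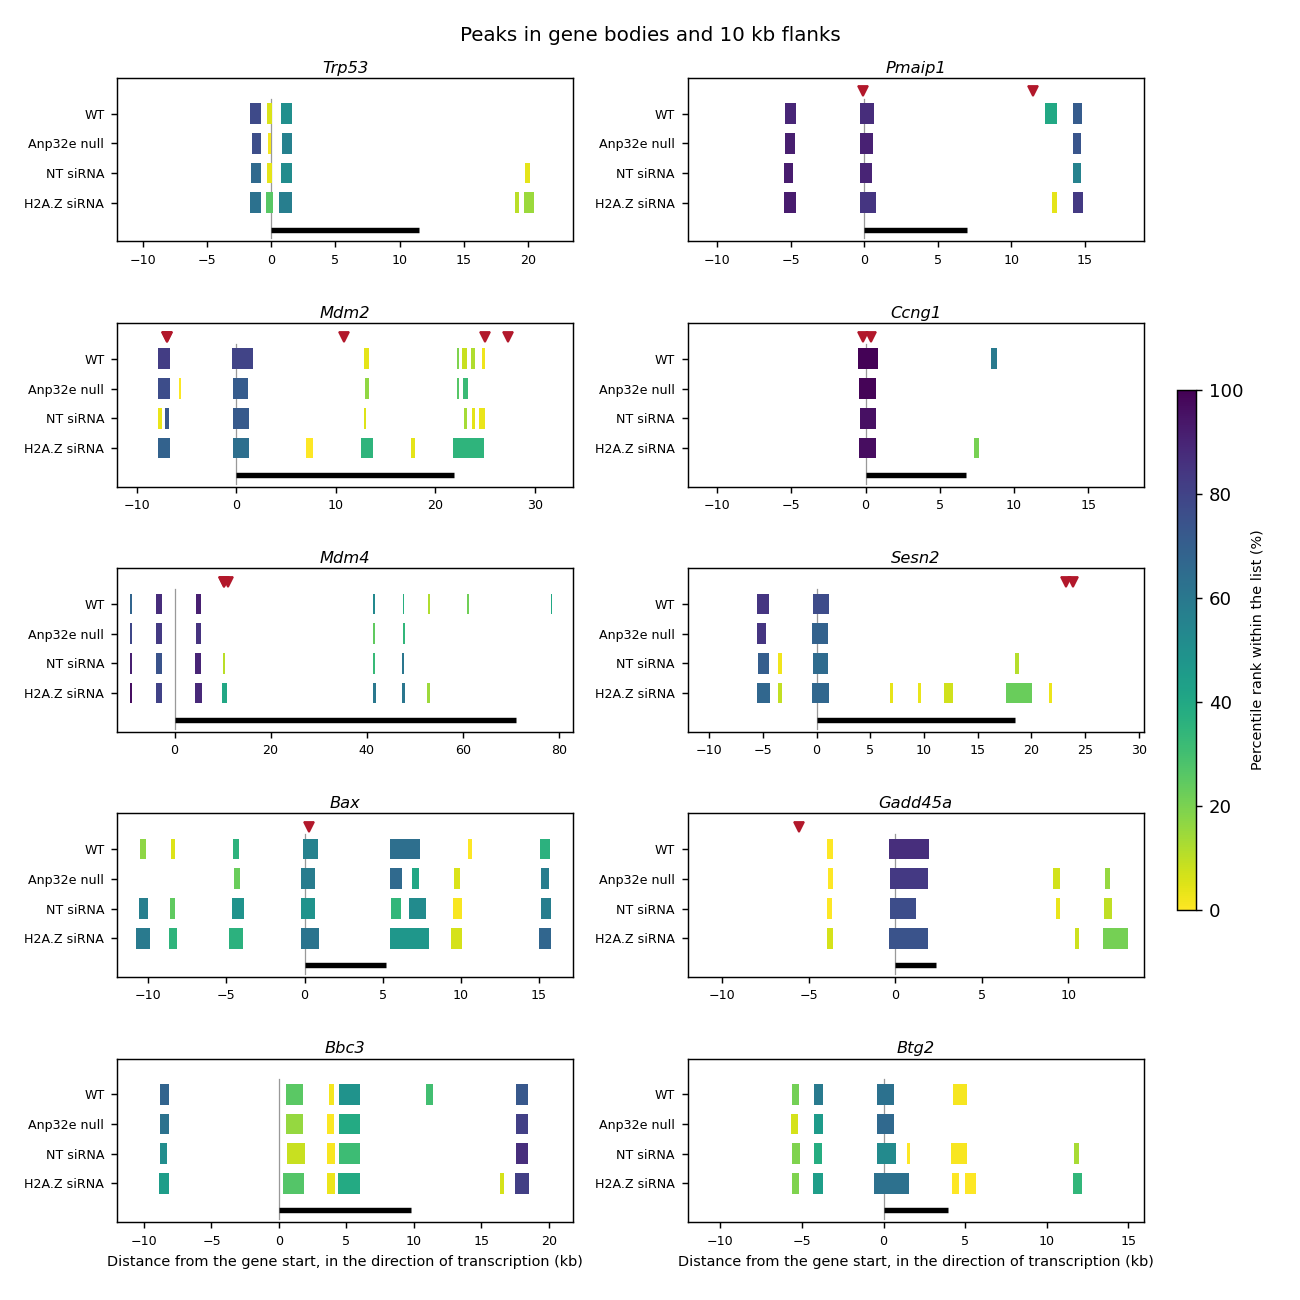
Peaks of the 4 lists around each gene against the distance from the gene start in the direction of transcription (kb); colour is the percentile rank within the list, the black bar is the gene body and red triangles mark p53 response elements. The Mdm2 elements upstream of the gene lie under a high-ranked peak in all 4 lists, and 2 of the 3 elements around Mdm4 lie at a peak called in the siRNA lists alone; 8 of the 16 elements lie in no peak.

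The RefSeq promoter table (GRCm38, from 250 bases before to 50 after the start) held 12 promoters of 9 of them, without Pmaip1. Their GC content ran from 43.0% (Mdm4) to 78.0% (Bbc3) with a median of 62.8%, against a median of 52.7% over 32851 promoters. Both Mdm4 promoters lay below that median. GGGCGG, the GC box bound by SP1, was present on either strand in 8 of the 12 promoters, against 35.7% of all promoters, and was not found in those of Ccng1, Mdm4 and Trp53. By gene the count was 6 of 9, since Bbc3 has several promoters, all of which held it. CCAAT, the box bound by NF-Y, was present in 7 of the 12 (7 of the 9 genes), against 37.4%. TATAAA was present in 1, that of Trp53, against 13.6%.

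A further 40 genes of the p53 pathway (10 regulators, 10 genes of apoptosis and 20 of arrest, repair and metabolism) were examined in the same way. A TSS peak was present in all 4 lists for 38 of them. Trp63, a p53 relative of epithelia, and Gdf15, a secreted stress factor, had none in any list, and no gene had one in some lists only. Their median percentile was 86.9, 84.9, 80.7 and 81.8.

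In Anp32e null against WT, none of the 38 was called higher and 3 were called lower, against the 2.26% and 9.19% of all genes given above, with a median of -1.81 points. In scaled pileup relative to the median gene the split differed. Fas (0.61), Polk, Rrm2b, Btg1, Phlda3, Trp53bp1, Apaf1 and Bid (0.29) were called above, and Ephx1 and Atm (-0.34) below. Of all genes 12.8% were above and 9.01% below. Ephx1, an epoxide hydrolase, was called lower by the most, from 62.5 to 23.8 (difference -38.7, interval -58.1 to -17.6). Zmat3, a p53-induced RNA-binding protein, was called lower as well (-11.5 points). In scaled pileup relative to the median gene, Ephx1 was below at -0.87 (-1.37 to -0.39) on the log2 scale, whereas Zmat3 was not called, at -0.10 (-0.43 to 0.22). Trp73, a p53 relative, differed by -12.1 points (-31.3 to 7.46), which was not called. The greatest differences upward were 7.84 points for the translesion polymerase Polh, 7.80 for Phlda3 and 6.01 for Trp53bp1, none of them called in rank. In scaled pileup Phlda3 was above the median gene at 0.39 (0.06 to 0.72) and Trp53bp1 at 0.34 (0.01 to 0.67). Polh was not called, at 0.35 (-0.09 to 0.79).

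In H2A.Z siRNA against NT siRNA, 7 of the 38 were called higher and 2 lower, against the 21.4% and 4.62% of all genes given above, with a median of 2.43 points against 2.06 over all genes. Lists of equal length turned that split over all genes, to 7.35% higher and 15.3% lower, and the 38 genes were not recounted with them. Zmat3 stood 13.7 points higher, Ccng2 13.3 and Pidd1 11.9, all called. Chek1, the checkpoint kinase, was called lower at -11.4 points (-16.3 to -5.62). Cdkn1a, which encodes the p21 inhibitor of cyclin-dependent kinases, was called lower as well, from 58.3 to 49.8 (-8.49, interval -14.2 to -2.68). In log2 scaled pileup Chek1 was below the median gene at -0.21 (-0.39 to -0.02), and Cdkn1a was not called, at -0.02 (-0.18 to 0.15). Ccng2 was above it at 0.42 (0.24 to 0.61) and Pidd1 at 0.26 (0.01 to 0.51), and Zmat3 at 0.22 (-0.02 to 0.46) was not called. Aen, a p53-induced nuclease, differed by -3.47 points and was not called in rank, but was below the median gene in scaled pileup at -0.17 (-0.33 to -0.01).

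**Figure D4:**
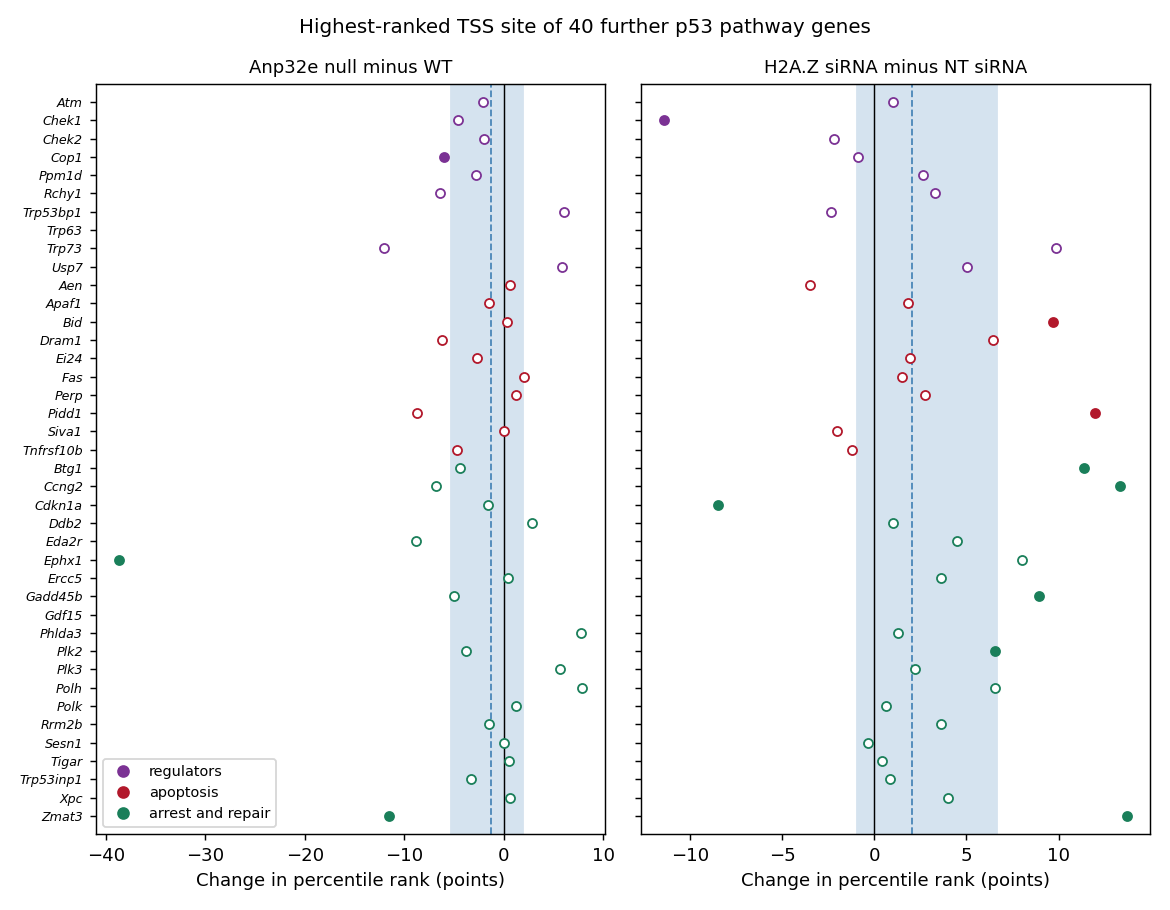
Difference in percentile rank (points) at the highest-ranked TSS site of 40 further p53 pathway genes in both comparisons; filled circles are called, open circles are not, the dashed line and band mark the median and the central 50% of all genes, and Trp63 and Gdf15 have no point. Ephx1 stands apart in Anp32e null minus WT at -38.7.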

How the data were processed

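ATAC-seq peak lists of 4 groups (9 libraries) were used. Per the labels and the study's methods, alignment to mm10 was by Bowtie2, duplicate reads were removed with Picard, and the authors called peaks with MACS2, giving 1 list per group (whether libraries were merged first is not given in the sources used here); the submitters' notes also name deepTools. The deposited lists give the summit's fold over the local background (a ratio with a pseudocount of 1), −log10 p, a −log10 q score, and positions. Sequencing depth is unknown.

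From fold and −log10 p the pileup at each summit and its local background were recovered (100% of pileups came out whole within 0.05). Its exact 95% Poisson interval was carried to the percentile rank, with the local background taken as known. Differences combined the 2 intervals by squares. Such intervals cover counting error only and not the spread between libraries. Peaks on chromosomes 1 to 19, X and Y were kept; peaks of the lists that overlapped by 1 bp were joined. The highest-ranked site within 1 kb of a GENCODE M21 TSS stood for a gene. Scaled pileup was the pileup over the list's genome-wide background. Its log2 ratios are given relative to that of the median gene TSS unless stated otherwise. That median was 0.65 for Anp32e null against WT and -0.31 for H2A.Z siRNA against NT siRNA.

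The 10 genes, the 40 pathway genes and the marker lists were chosen with earlier results of these data known. The text names the 10 genes, the 3 greatest pathway differences in each direction and comparison, pathway genes with a TSS peak in some lists only, the 3 genes most like Trp53, and neighbouring starts within 1 kb; other genes and sites were named after their values were seen. Alternatives were −log10 q of 5 or more, equal peak numbers, scaling of pileups to the NT siRNA background, ranks by −log10 p or by pileup, 500 bp promoters, protein-coding transcripts alone, the site nearest a TSS, 50% reciprocal overlap, flanks of 0 and 5 kb, and other element settings. The scripts used Python 3.11.15, NumPy 2.4.6, SciPy 1.17.1, pandas 2.3.3, samtools 1.23.1 and matplotlib 3.10.9, and the recovery, the calls and the element search were tested on simulated data. No sequence of Pmaip1 is reported here.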

Additional observations from a re-analysis of the deposited data

How the results depend on the processing

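No paired analysis was possible because the deposited lists, 1 per group, carry no replicate, and none could be left out. The TSS peaks of the 10 genes stayed at 10 of 10 in every list under every alternative run. The call of Mdm2 as lower in Anp32e null was lost (0 genes called lower) at −log10 q of 5 or more, with equal peak numbers, with pileups scaled to the NT siRNA background, and with ranks by −log10 p or by pileup. Of all genes 6.79%, 8.27%, 2.66%, 6.72% and 12.3% were called lower under these settings, in that order. In H2A.Z siRNA against NT siRNA, equal peak numbers gave 0 genes called higher, 5 lower, a median of -6.10 points and 33 peaks in the H2A.Z siRNA windows, and turned Bbc3 to -5.84 and Sesn2 to -6.36. The NT siRNA background gave 1 higher and 0 lower (13.7% and 2.26% of all genes), and −log10 q of 5 or more gave 0 lower (3.68%). Promoters of 500 bp and the site nearest a TSS, the latter chosen after seeing the data, turned Trp53 to 21.8, called higher. Under these settings 21.5% and 21.4% of all genes were called higher. Ranks by pileup, chosen after seeing the data, turned Mdm2 to 2.08 and Btg2 to -0.42, and called Ccng1 higher and Gadd45a lower. Of all genes 35.7% were called higher and 8.08% lower with those ranks. Ranks by −log10 p called Trp53 lower (-2.66) and Ccng1 higher (0.91) and lost the calls of Mdm2 (-0.21) and Btg2 (0.71). There 28.3% of all genes were called higher and 6.26% lower. Gene bodies alone held 18, 16, 18 and 25 peaks and 17 sites called in all 4 lists. Response elements lay in 6 sites with a spacer of up to 13 and in 5 over whole sites, the latter also chosen after seeing the data. Why these values differ was not tested.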
